A study of Mus musculus with 6 samples.

Results

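Insulin-like growth factor (IGF) genes were followed in 661W cells, a mouse cell line used as a model of cone photoreceptors and derived from a retinal tumour of a mouse carrying an SV40 T antigen transgene. The set holds 10 genes chosen by name, with earlier results of these data known, from the 38776 genes counted. They are the ligands Igf1 and Igf2, the receptors Igf1r and Igf2r, and the binding proteins Igfbp2, Igfbp3, Igfbp4, Igfbp5, Igfbp6 and Igfbp7. RNA of 6 cultures was sequenced, 3 serum-fed and 3 serum-starved. Every culture was first grown in high-glucose DMEM with 10% fetal calf serum. The medium was then exchanged for 72 h, either for fresh medium with 10% serum (serum-fed) or for the same medium with no serum (serum-starved). Each condition was sampled once at passage 24, once at passage 26 and once at passage 27, so that n = 3 per condition and each passage holds 1 fed and 1 starved culture. The comparison asks which IGF genes change when serum is withdrawn, the treatment used to make these cells leave the cell cycle and grow cilia.

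IGF1 and IGF2 are secreted peptides related to insulin. They signal through the tyrosine kinase receptor IGF1R, while IGF2R, which also carries mannose 6-phosphate tagged enzymes to the lysosome, takes up IGF2 and does not signal as a kinase. Secreted binding proteins hold the ligands outside the cell, and proteases that cut the binding proteins set the ligands free. IGFBP7 belongs to the family by sequence but binds IGFs weakly. In the eye, IGFs are known as growth and survival factors for retinal cells. Serum carries IGFs and binding proteins of its own, and the libraries measure only the mRNA of the cells.

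After serum withdrawal 3 of the 10 genes rose, both ligands and the binding protein Igfbp2, and none fell. Igf1 rose 3.75-fold, Igfbp2 2.85-fold and Igf2 2.25-fold. The mRNAs of both receptors did not pass the test, nor did those of the other 5 binding proteins. The test was edgeR's quasi-likelihood test on counts with the passage as a block, and a gene was called at a Benjamini-Hochberg adjusted p under 0.05 over the 16168 genes that passed a filter on low counts. All 10 members passed that filter, and the lowest count of any member in any library was 156. Of all genes tested, 3.48% were called higher in starved cells and 1.6% lower. At an adjusted p under 0.01, Igf1 was the only member called by edgeR, and 0.73% of all genes tested were called higher. The study used that level with DESeq2. Here DESeq2 with the passage put Igf1, Igfbp2 and Igf2 (higher) and Igfbp4 (lower) under it (adjusted p = 1.1e-17, 4.3e-08, 1.2e-06 and 0.0073). In edgeR without the passage, none of the 3 genes that rose was called (adjusted p = 0.169 for Igf1, 0.628 for Igf2 and 0.653 for Igfbp2). Nor were H19 or any pathway gene described further on. At an unadjusted p under 0.05, 6 members were higher and 2 lower. Over all 16168 genes tested, 3922 were under that level in either direction. The median log2 fold change was 0.49 over the 10 members and -0.00 over all genes tested.

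The promoters of the 3 genes that rose are shown first, with that of Igfbp4, which had the lowest fold change of the set. The windows are from RefSeq on GRCm38.p6, each with 250 bases before a transcription start and 50 from the start onward, read 5′ to 3′ on the strand of the gene. Capitals mark matches to GGGCGG, the letters of a GC box, on either strand in Igf2 and Igfbp2, to CANNTG, the letters of an E-box, in Igf1, and to TATAAA, the letters of a TATA box, in Igfbp4. Igf1 is read from chr10:87860861-87861160 (+), window 1 of the 2 RefSeq starts of Igfbp2 from chr1:72824230-72824529 (+), windows 3 and 4 of the 4 RefSeq starts of Igf2 from chr7:142658755-142659054 (-) and chr7:142657447-142657746 (-), and Igfbp4 from chr11:99040994-99041293 (+).
Igf1: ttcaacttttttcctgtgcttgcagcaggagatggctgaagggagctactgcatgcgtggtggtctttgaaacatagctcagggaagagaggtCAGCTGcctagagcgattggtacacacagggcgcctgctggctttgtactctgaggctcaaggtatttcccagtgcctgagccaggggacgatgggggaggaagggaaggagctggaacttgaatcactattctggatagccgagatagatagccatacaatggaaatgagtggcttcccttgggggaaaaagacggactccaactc
Igfbp2, window 1: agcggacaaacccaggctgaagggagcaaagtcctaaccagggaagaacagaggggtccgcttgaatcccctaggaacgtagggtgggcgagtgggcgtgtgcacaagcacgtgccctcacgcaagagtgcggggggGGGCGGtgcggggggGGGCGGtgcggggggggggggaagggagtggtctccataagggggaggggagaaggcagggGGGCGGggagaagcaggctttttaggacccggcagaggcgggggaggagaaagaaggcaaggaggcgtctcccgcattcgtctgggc
Igf2, window 3: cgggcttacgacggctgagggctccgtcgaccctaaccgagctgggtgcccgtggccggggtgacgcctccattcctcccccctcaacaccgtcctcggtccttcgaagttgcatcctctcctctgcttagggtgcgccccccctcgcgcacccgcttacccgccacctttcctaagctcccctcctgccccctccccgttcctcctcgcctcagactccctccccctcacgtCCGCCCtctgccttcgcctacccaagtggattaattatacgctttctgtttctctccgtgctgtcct
Igf2, window 4: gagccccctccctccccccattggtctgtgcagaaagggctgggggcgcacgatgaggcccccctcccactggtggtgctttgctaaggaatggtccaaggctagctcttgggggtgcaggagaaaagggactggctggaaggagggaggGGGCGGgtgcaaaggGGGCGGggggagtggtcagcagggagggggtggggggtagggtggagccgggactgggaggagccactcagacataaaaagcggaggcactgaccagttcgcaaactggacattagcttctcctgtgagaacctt
Igfbp4: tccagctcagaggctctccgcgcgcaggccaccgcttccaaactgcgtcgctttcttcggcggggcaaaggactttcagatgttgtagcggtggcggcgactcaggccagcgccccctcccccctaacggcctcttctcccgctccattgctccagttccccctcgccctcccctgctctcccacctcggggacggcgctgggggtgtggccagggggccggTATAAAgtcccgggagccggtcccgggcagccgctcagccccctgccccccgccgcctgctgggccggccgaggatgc

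The promoters of the genes that rose differed in make-up. The Igf1 window was 52.3% G and C, close to the median of 52.7% over 32851 windows of the same length, held no GGGCGG and held 1 CANNTG, at -157 from the start. Igfbp2 window 1 was 67.0% G and C and held GGGCGG at -113, -98 and -37, while window 2, at the other RefSeq start, was 57.3% G and C and held none. Igf2 window 4, 63.3% G and C, held it at -100 and -85, and window 3, 64.7% G and C, held it once at -17 as CCGCCC. The other 2 Igf2 windows held none, and the counts do not tell which start of either gene was used. Over all windows GGGCGG, searched on both strands, was found in 35.7%, CANNTG in 72.3% and TATAAA in 13.6%. All 10 members matched a RefSeq symbol, giving 14 windows, because Igf2 has 4 and Igfbp2 has 2. GGGCGG was found in windows of 5 of the 10 members, among them Igf1r, Igf2r and Igfbp7, none of which was called. CANNTG was found in windows of 8 of the 10 members, among them Igf1, Igf2, Igfbp2 and Igfbp4. TATAAA was found in 2 of the 10 members, Igfbp4 at -28 and Igfbp6 at -148. By window, the unit of the shares over all windows, GGGCGG was in 6 of 14, CANNTG in 10 and TATAAA in 2. Members with more than 1 window have more chances of a match. GTAAACA, the letters of a forkhead site, was in none of the 14 windows and in 3.65% of all windows. No match of one motif overlapped a match of another in these 14 windows. A match of letters is a description, and no binding was measured.

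Igf1 lies at chr10:87858265-87937042 on the plus strand (GENCODE M21, GRCm38). Levels are given in CPM, counts scaled to a library total of 1000000. The level of Igf1 in serum-fed cells was 5.63 at passage 24, 7.80 at passage 26 and 5.84 at passage 27. In serum-starved cells it was 16.6, 37.6 and 24.3 in the same order. Each starved library stood above every fed library, and Igf1 was the only member whose groups did not overlap upward, against 7.94% of all genes tested. The mean went from 6.42 ± 1.20 to 26.2 ± 10.6 CPM (SD, n = 3 each). The fitted log2 fold change was 1.91 (SE 0.20, adjusted p = 0.00483). Within passages the ratio of starved to fed was 2.95, 4.82 and 4.17, and the starved culture of passage 26 was the highest.

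**Figure D1:**
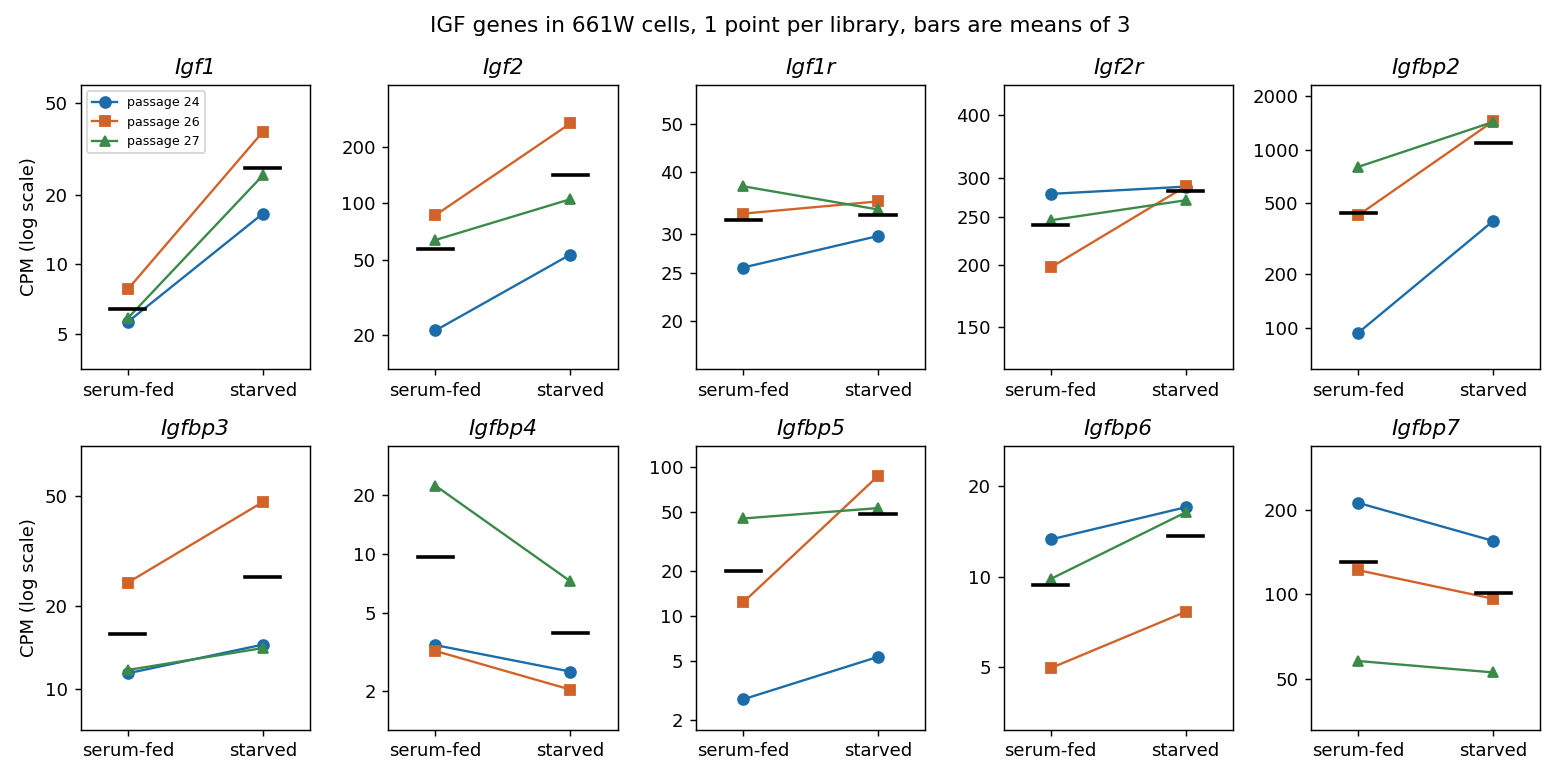
Level of each of the 10 IGF genes in CPM (log axis) in the 3 serum-fed and 3 serum-starved libraries, with a line joining the cultures of 1 passage and a black bar at the mean of 3. The Igf1 lines run from between 5.63 and 7.80 CPM to between 16.6 and 37.6 CPM, while the fed and starved ranges of the other 9 genes overlap.

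Igf2 lies at chr7:142650766-142666816 on the minus strand and is expressed from the paternal allele in mouse. Its level was 21.2, 86.8 and 64.0 CPM in fed cells of passages 24, 26 and 27, and 53.6, 266.2 and 105.4 CPM in starved cells. It was higher after starvation in each passage, by 2.53-, 3.07- and 1.65-fold, yet the groups overlapped because starved cells of passage 24 lay below fed cells of passages 26 and 27. The log2 fold change was 1.17 (SE 0.18, adjusted p = 0.0160). In GENCODE M21 a second gene model, Gm49394, shares 3596 of the 5723 exon bases of Igf2 on the same strand. That name is not among the rows counted here, so how reads from the shared bases were assigned is uncertain. Igf2os, the antisense transcript, overlaps 98 exon bases, and the counting used strand.

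H19 is the non-coding RNA made from the maternal allele beside Igf2, in an imprinted domain known for expressing either gene from opposite parental alleles. Its level was 199.3, 1066 and 1262 CPM in fed cells and 909.4, 5139 and 3625 CPM in starved cells of passages 24, 26 and 27. It rose by 1.94 on the log2 scale (SE 0.19, adjusted p = 0.00438) and was higher in each passage. Igf2os stood at a mean of 0.53 CPM in fed and 1.29 CPM in starved cells, a log2 difference of 0.99 (adjusted p = 0.146) that did not pass. Airn, the antisense RNA that silences Igf2r on the paternal chromosome in mouse, did not pass either (0.18, adjusted p = 0.778). Mir483, a miRNA gene inside Igf2, had 1 count in the 6 libraries together. Mir675, made from H19, had 0 counts, but all of its 84 exon bases lie within H19 exons on the same strand. The union method of counting leaves out reads that overlap both genes, so this 0 gives no upper limit.

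The signalling receptor Igf1r (chr7:67952827-68233668, plus strand) did not pass the test. It was counted at 25.7, 33.0 and 37.4 CPM in fed and at 29.7, 34.9 and 33.6 CPM in starved cells of passages 24, 26 and 27. The ratio was 1.16, 1.06 and 0.90, with no common direction, and the log2 fold change was -0.01 (SE 0.14, adjusted p = 0.975). Its sign turned in 4 of 16 other ways of fitting the data, with library totals and without passage 27 or either of its libraries. None of the 16 called it. With this SE, small changes in receptor mRNA were not detectable.

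Igf2r (chr17:12682406-12769664, minus strand) differed least between passages. Its level was 278.2, 197.9 and 246.2 CPM in fed cells and 287.7, 288.0 and 270.1 CPM in starved cells. It was higher after starvation in each passage, most at passage 26 with a ratio of 1.46, but the groups overlapped. The log2 fold change was 0.18 (SE 0.14, adjusted p = 0.465). The mean level of a passage, over both conditions, differed by 1.17-fold between the highest and the lowest passage.

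Igfbp2 (chr1:72824503-72852474, plus strand) encodes a secreted binding protein that holds both ligands. Its level was 93.5, 429.3 and 803.4 CPM in fed cells and 398.5, 1452 and 1439 CPM in starved cells of passages 24, 26 and 27. The ratio was 4.26 at passage 24, 3.38 at passage 26 and 1.79 at passage 27, so that the passage with the lowest fed level had the largest ratio. Starved cells of passage 24 lay below fed cells of passages 26 and 27. The log2 fold change was 1.51 (SE 0.24, adjusted p = 0.0173).

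Igfbp3 (chr11:7206086-7213923, minus strand), the main carrier of IGFs in blood, was higher after starvation in each passage but was not called. Its level was 11.4, 24.4 and 11.8 CPM in fed and 14.5, 47.7 and 14.1 CPM in starved cells, with both cultures of passage 26 above all others. The fitted change was 0.47 on the log2 scale (SE 0.19, adjusted p = 0.176).

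Igfbp4 (chr11:99041244-99054392, plus strand), an inhibitory binding protein that the protease PAPP-A cuts, was lower after starvation in each passage. Its level was 3.42, 3.19 and 22.2 CPM in fed and 2.51, 2.03 and 7.23 CPM in starved cells. Both cultures of passage 27 stood above the other 4. The fitted difference was -0.97 on the log2 scale (SE 0.27) and the adjusted p was 0.0850, which did not pass. The call depended on the method. DESeq2 with the passage gave an adjusted p of 0.00731, edgeR without a filter on low counts gave 0.0293, and edgeR without the fed or the starved library of passage 24 gave 0.0468 and 0.0492. The ratio was 0.73, 0.64 and 0.33 at passages 24, 26 and 27. Without passage 27 the log2 fold change was -0.61 (edgeR, adjusted p = 0.346). Over 16 alternatives the adjusted p ran from 0.00731 to 0.671.

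Igfbp5 (chr1:72857932-72874884, minus strand), which binds to extracellular matrix as well as to IGFs and lies next to Igfbp2, varied most between passages. Its level was 2.74, 12.3 and 45.3 CPM in fed and 5.29, 87.5 and 53.2 CPM in starved cells. The ratio was 1.93, 7.11 and 1.17, and the log2 fold change of 1.27 (SE 0.45, adjusted p = 0.141) rested largely on passage 26. Without that passage it was 0.54, and edgeR without a filter on low counts gave an adjusted p of 0.0283, the lowest of 16 alternatives that reached up to 0.754.

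Igfbp6 (chr15:102144362-102149511, plus strand), which prefers IGF2 to IGF1, was counted at 13.3, 4.97 and 9.82 CPM in fed cells. In starved cells it was counted at 17.0, 7.64 and 16.3 CPM, higher in each passage. The log2 fold change was 0.51 (SE 0.18, adjusted p = 0.138) with edgeR, and DESeq2 gave an adjusted p of 0.0473, the lowest of 16 alternatives that reached up to 0.761.

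Igfbp7 (chr5:77349240-77408041, minus strand) was lower after starvation in each passage by a small margin and was not called. Its level was 211.8, 121.9 and 57.8 CPM in fed and 155.0, 96.4 and 52.7 CPM in starved cells. On the log2 scale the difference was -0.36 (SE 0.12, adjusted p = 0.124). The order of the passages was the same in either condition, with passage 24 highest and passage 27 lowest.

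**Figure D2:**
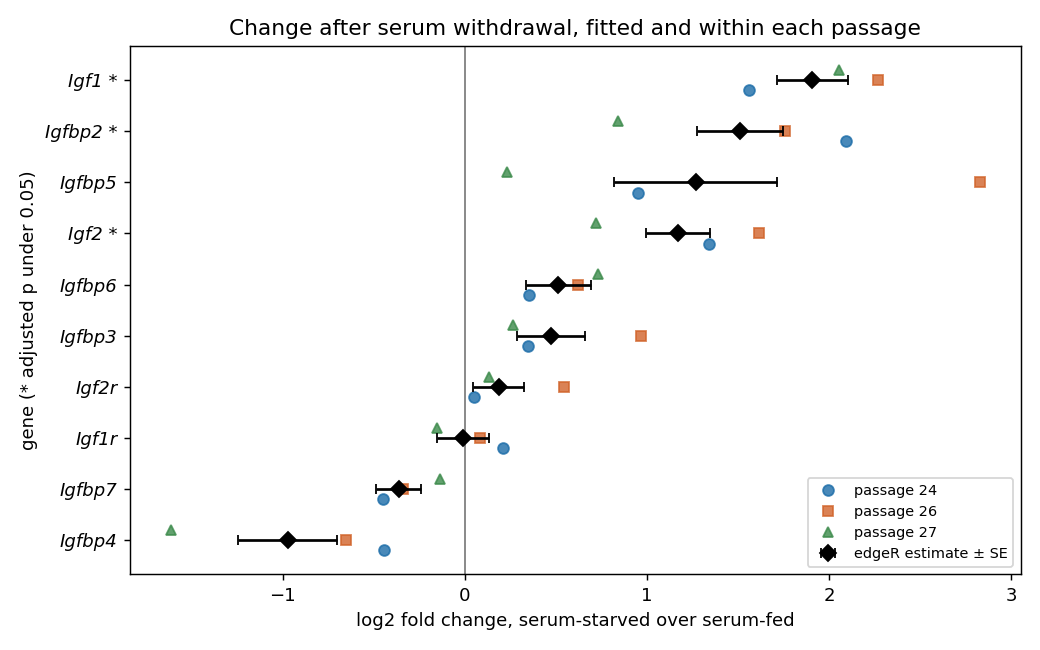
Fitted log2 fold change of each IGF gene, serum-starved over serum-fed (black diamonds, bars ± SE), with the log2 ratio within each passage as coloured points and an asterisk at genes with an adjusted p under 0.05. Igf1, Igfbp2 and Igf2 sit at 1.91, 1.51 and 1.17 with all 3 passages above 0, and Igfbp4 and Igfbp7 sit at -0.97 and -0.36 with all 3 passages below 0.

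Counting by direction, 7 of the 10 members were higher in starved cells in each of the 3 passages, against 27.6% of all genes tested. Lower in each passage were 2 of the 10, Igfbp4 and Igfbp7, against 19.3% of all genes tested. Igf1r alone was mixed. Because the members were chosen with earlier results of these data known, the shares over all genes stand beside these counts as a description. Those higher in each passage were both ligands, the receptor Igf2r and 4 of the 6 binding proteins, Igfbp2, Igfbp3, Igfbp5 and Igfbp6.

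Levels can be compared between genes only per length, so CPM were divided by the length in kilobases of all annotated exon bases of the gene (RPKM). In fed cells Igfbp2 was the most abundant member at a mean of 239.3 RPKM, followed by Igfbp7 at 107.9, Igf2r at 25.9 and Igf2 at 10.0. Igfbp6 at 8.42, Igfbp3 at 5.07, Igfbp5 at 3.35, Igfbp4 at 2.17 and Igf1r at 1.91 RPKM came next, and Igf1 was the least abundant at 0.65 RPKM. Neighbours in this order overlapped in their ranges over the 3 fed libraries except at 3 steps, from Igfbp7 to Igf2r, from Igf2r to Igf2 and from Igf1r to Igf1.

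In starved cells the order of the first 7 members was the same, and Igf1 moved from last place to the eighth, above Igf1r and Igfbp4. Igfbp2 reached a mean of 593.8 RPKM, Igf2 24.8, Igf1 2.64, Igf1r 1.95 and Igfbp4 0.89 RPKM. Ranges did not overlap from Igfbp2 to Igfbp7, from Igfbp7 to Igf2r and from Igf1r to Igfbp4. Among 35629 genes with a length, Igfbp2 ranked 140 in fed and 30 in starved cells, and Igf2 ranked 4968 and 2307. With the longest transcript as the length, Igf1r stood above Igfbp4 in fed cells as well, at a mean of 2.81 RPKM, and the other places in either order were the same.

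**Figure D3:**
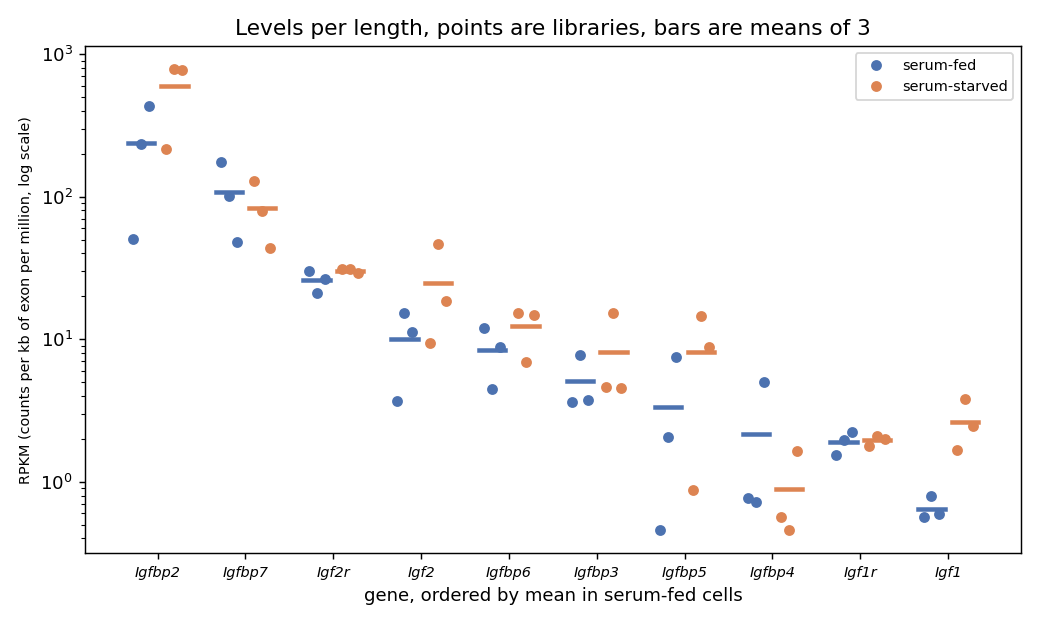
Level per length of the 10 IGF genes in RPKM (CPM per kilobase of exon, log axis), ordered by the mean in serum-fed cells, with 1 point per library and a bar at the mean of 3. Igfbp2 leads in both conditions at means of 239.3 and 593.8 RPKM, and Igf1 at 0.65 RPKM in fed and 2.64 RPKM in starved cells makes the clearest step between conditions.

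Igf2 was the more abundant ligand mRNA in every library. Its level per length, its place in the order above and the sums and ratios that hold it carry the uncertainty over exon bases shared with Gm49394. The ratio of Igf2 to Igf1 in RPKM was 6.52, 19.2 and 18.98 in fed cells and 5.59, 12.3 and 7.50 in starved cells of passages 24, 26 and 27. It was lower after starvation in 3 of 3 passages, a design in which the smallest two-sided exact p is 0.25. Summed over both ligands, the level was 4.27, 16.0 and 11.8 RPKM in fed and 11.04, 50.3 and 20.9 RPKM in starved cells. The ratio of Igf2r to Igf1r was 19.6, 10.8 and 11.9 in fed and 17.5, 14.9 and 14.5 in starved cells, with no common direction.

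The summed binding proteins Igfbp2 to Igfbp6, those with high affinity for IGFs, exceeded the summed ligands in every library. Their ratio in RPKM was 15.8, 15.5 and 39.1 in fed cells and 21.5, 16.4 and 38.8 in starved cells. The ratio was highest at passage 27 in both conditions. Within passages it was higher after starvation at passages 24 and 26 and slightly lower at passage 27.

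Igfbp2 made up more of the binding-protein mRNA after starvation in each passage. Its share of the summed RPKM of Igfbp2 to Igfbp7 was 20.9%, 66.7% and 85.6% in fed cells and 59.1%, 87.1% and 91.4% in starved cells. The share of Igfbp7 was 72.2%, 29.0% and 9.41% in fed and 35.1%, 8.83% and 5.11% in starved cells. At passage 24 Igfbp7 led in fed cells and Igfbp2 in starved cells, while Igfbp2 already led at the other passages. The remaining 4 binding proteins together stayed below Igfbp2 in every library.

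**Figure D4:**
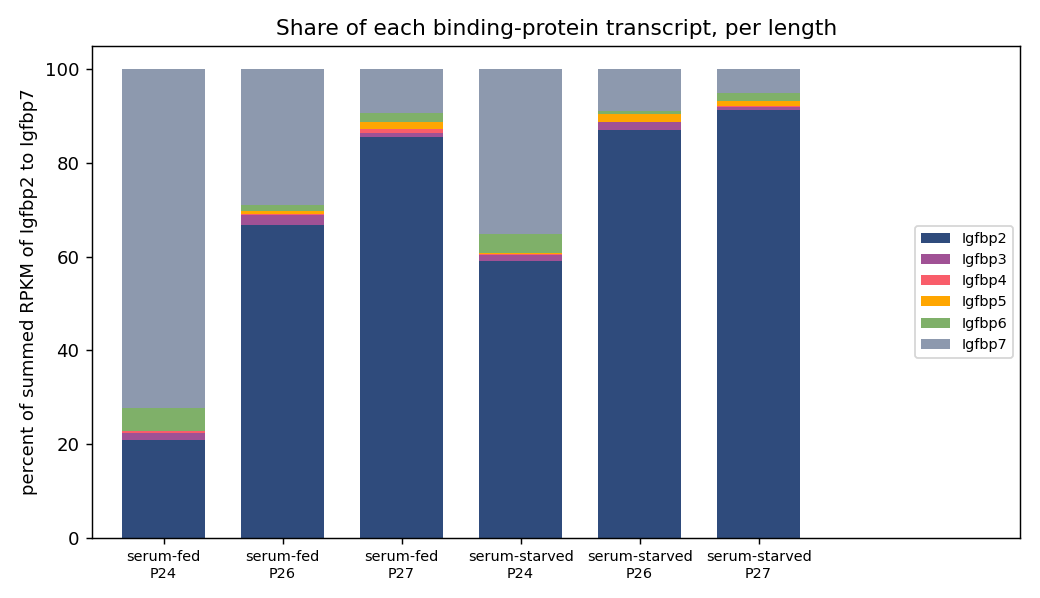
Share of Igfbp2 to Igfbp7 in their summed RPKM (percent, stacked to 100) in each of the 6 libraries, with the 3 serum-fed libraries at the left and the 3 serum-starved at the right. Igfbp2 takes 20.9% of the fed and 59.1% of the starved library of passage 24, and 91.4% of the starved library of passage 27.

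As for most genes tested, the passage of the culture accounted for more of the spread of most members than serum did. The squared deviations of log2 CPM over the 6 libraries were divided between condition, passage and the remainder. Passage has more levels than condition, which favours its share even where neither has an effect. The median shares over the members were 17.7% for condition, 77.9% for passage and 4.23% for the remainder, beside 17.6%, 58.3% and 13.8% over all genes tested. Passage took more than condition in 80% of the members and in 73.6% of all genes tested. Igf1 was an exception with 87.4% for condition and 10.6% for passage, and Igf2r had 40.2% and 27.7%. Igfbp7 was at the other end with 94.6% for passage.

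The size of the passage differences was read from the mean of the fed and starved cultures of each passage. Between the highest and the lowest passage Igfbp5 differed 12.4-fold, Igfbp4 5.63-fold, Igf2 4.72-fold and Igfbp2 4.56-fold. Igfbp7 differed 3.32-fold, Igfbp3 2.79-fold, Igfbp6 2.40-fold and Igf1 2.04-fold. The receptors differed least, Igf1r 1.28-fold and Igf2r 1.17-fold. The members did not follow the passages in 1 order, since Igf2 and Igfbp3 were highest at passage 26, Igfbp4 and Igfbp2 at passage 27, and Igfbp7 and Igfbp6 at passage 24. Passage number and day of culture cannot be told apart.

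Genes whose log2 CPM ran most alike over the 6 libraries were looked up among 12568 genes with a mean of at least 1 CPM. For Igf1 they were Epc1, Ubl4 and Cmklr1, each with a Pearson r of 0.990. For Igf2 they were Exoc3l with an r of 0.995, and Prkag3 and Pdlim3, both at 0.992. For Igfbp2 they were Vwa1, Slc9a9 and Ppm1k, the lowest of them at 0.998. An r above 0.9 was reached by 271 genes for Igf1, 313 for Igf2 and 1167 for Igfbp2. These values are descriptions over 6 libraries that share passages and culture conditions.

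Outside the set, 43 genes of the IGF pathway in 4 lists were counted, of which 38 were tested, 3 were called higher and 1 lower. Beside these counts and those of each list below, 3.48% of all genes tested were called higher and 1.6% lower. The median log2 fold change of the tested pathway genes was 0.13. The first list holds genes that set how much ligand is free. Of its 8 genes 5 were tested, 2 were called higher, Htra1 and Stc2, and none lower, with a median log2 fold change of 0.78. Htra1, a secreted serine protease that can cut IGF binding proteins, was counted at 210.9, 352.3 and 781.0 CPM in fed and 539.6, 872.8 and 1110 CPM in starved cells. Its log2 fold change was 1.00 (SE 0.19, adjusted p = 0.0328), and the adjusted p was 0.0658 without passage 24.

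Stc2, a stanniocalcin that inhibits PAPP-A, was counted at 17.3, 38.9 and 30.5 CPM in fed and 36.7, 65.5 and 44.6 CPM in starved cells. Its log2 fold change was 0.74 (SE 0.15, adjusted p = 0.0373). Leaving out any passage, or either library of any passage, ended that call, with adjusted p from 0.0530 to 0.0801. The related Stc1 (0.78, adjusted p = 0.154) and the proteases Pappa (0.71, adjusted p = 0.150) and Pappa2 (1.23, adjusted p = 0.184) did not pass. Pappa2 was called in the 3 fits without passage 24 or either of its libraries (adjusted p from 0.0351 to 0.0429), where its log2 fold change was 1.90. Igfbp1 and Igfbpl1 had 0 counts in every library, which allows at most between 0.0344 and 0.0417 CPM per library, and Igfals had 4 counts in all.

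Of the 5 genes of insulin, its receptors and its degrading enzyme 3 were tested and none called, with 1 higher at an unadjusted p under 0.05. That unadjusted level was reached by 3922 of all 16168 genes tested, in either direction. The insulin receptor Insr stood at -0.06 (adjusted p = 0.817) and Ide, which degrades insulin, at -0.02 (adjusted p = 0.927) on the log2 scale. Ins2 had 69 counts over the 6 libraries (2.33, adjusted p = 0.115), and Ins1 had 0.

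Of 10 receptor adaptors and inhibitors, all tested, none was called higher and Socs2 was called lower, with a median log2 fold change of 0.32. Socs2, a feedback inhibitor of growth hormone signalling, was counted at 16.6, 11.3 and 7.35 CPM in fed cells and at 3.03, 3.39 and 3.09 CPM in starved cells. Each starved library was below every fed library, and the share of all genes tested with such a separation was not counted. The same separation was seen for Rheb and Mtor of the next list, which were not called (adjusted p = 0.212 and 0.448). Socs2 fell by 1.87 on the log2 scale (SE 0.27, adjusted p = 0.0139). The insulin receptor substrate Irs2 (0.67, adjusted p = 0.0579), the docking protein Gab1 (0.50, adjusted p = 0.0948) and the adaptor Shc1 (0.32, adjusted p = 0.184) did not pass. Irs4 did not pass either (1.92, adjusted p = 0.0798) and had 78 counts in all. Irs2 was called higher in 3 of 16 alternatives, with DESeq2, with no filter on low counts and with scaling to library totals (adjusted p = 0.00719, 0.0168 and 0.0485), and Gab1 in 1, with DESeq2 (adjusted p = 0.0386).

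Of 20 genes of the PI3K-AKT-mTOR arm, all tested, Pik3r3 was called higher and none lower, with a median log2 fold change of 0.02. Pik3r3, a regulatory subunit of PI 3-kinase, was counted at 34.3, 28.7 and 27.0 CPM in fed and 49.6, 69.8 and 50.5 CPM in starved cells. Its log2 fold change was 0.85 (SE 0.17, adjusted p = 0.0348). The adjusted p was 0.0859 without passage 26 and 0.123 without passage 27. Pik3r1 (0.43, adjusted p = 0.102), Tsc1 (0.27, adjusted p = 0.211), the kinase Akt1 (-0.33, adjusted p = 0.150) and the translation repressor Eif4ebp1 (-0.73, adjusted p = 0.132) did not pass. The Eif4ebp1 ratio was 1.09 at passage 24, 0.42 at passage 26 and 0.55 at passage 27. It was called lower in 5 of 16 alternatives, with DESeq2 (adjusted p = 0.0392), with no filter on low counts (adjusted p = 0.0384) and without passage 24 or either of its libraries (adjusted p from 0.00937 to 0.0157), and over all 16 the adjusted p reached up to 0.533.

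**Figure D5:**
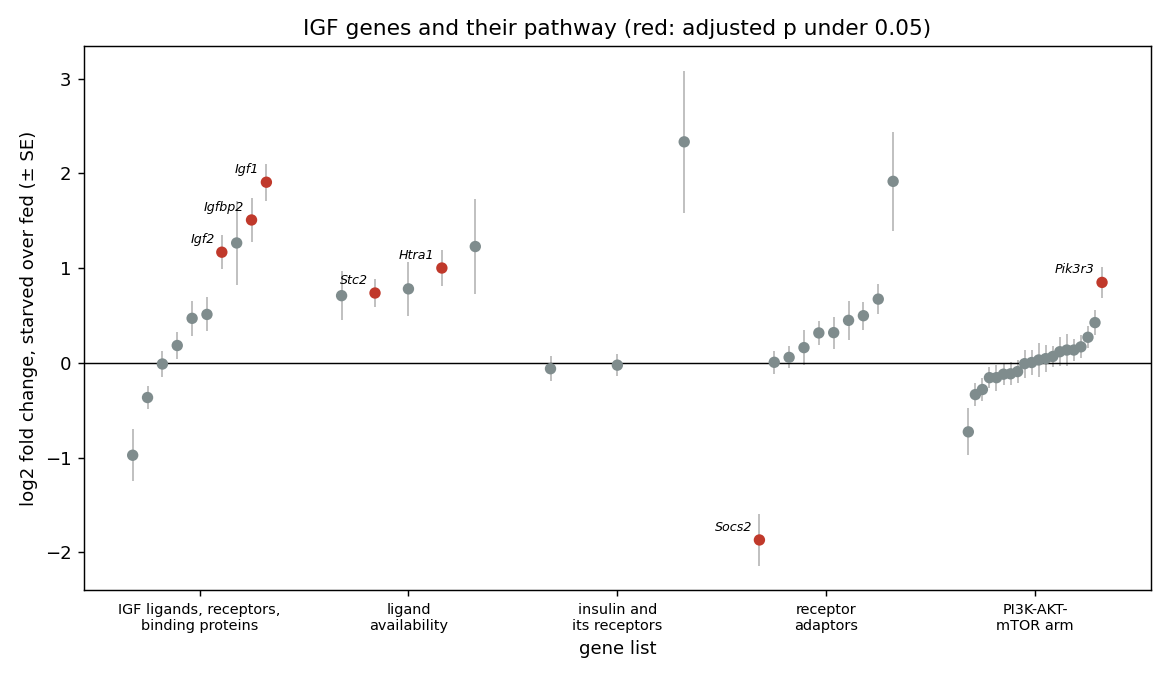
Log2 fold change (serum-starved over serum-fed, bars ± SE) of the tested genes in the IGF set and in 4 lists of its pathway, ordered within each list, with genes at an adjusted p under 0.05 in red and named. Igf1, Igfbp2, Igf2, Htra1, Stc2 and Pik3r3 lie above 0, Socs2 lies at -1.87, and most genes of the PI3K-AKT-mTOR arm lie close to 0 around a median of 0.02.

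The libraries held between 71970076 and 87178722 counts. Markers of the labelled cell type were scarce. The summed level of 11 cone markers was 1.52 to 2.62 CPM in fed and 1.53 to 2.09 CPM in starved cells, cone arrestin (Arr3) had 0 counts, and none of the 4 tested was called (1 was higher at an unadjusted p under 0.05). Some members of other marker lists were called higher after serum withdrawal, as Igf1, Igf2 and Igfbp2 were and as 3.48% of all genes tested were. Of 8 fibroblast and mesenchyme markers 7 were tested and 4 called higher, Col1a1, Col1a2, Col3a1 and Dcn. The summed level was 777.2 to 2520 CPM in fed and 2010 to 6522 CPM in starved cells, with Lum at 5 counts in all. Col1a2 made up most of that sum, at means of 1564 CPM in fed and 3961 CPM in starved cells. Thy1, Pdgfra and Fap did not pass. The ratio at passages 24, 26 and 27 was 0.78, 3.36 and 2.41 for Pdgfra and 0.37, 0.72 and 4.38 for Fap. Of 12 skeletal muscle markers 10 were tested and 6 called higher, Myog, Mymk, Ckm, Acta1, Mylpf and Myh3, with Myf5 at 0. The summed muscle level was 59.8, 175.2 and 82.3 CPM in fed and 55.9, 772.6 and 278.1 CPM in starved cells of passages 24, 26 and 27, so that it was slightly lower after starvation at passage 24, where Myod1 had a ratio of 0.22 and Chrna1 of 0.90. Of 6 Müller glia markers 5 were tested and 2 called higher, Slc1a3 and Apoe, with sums of 70.1 to 88.8 CPM in fed and 104.1 to 301.8 CPM in starved cells and Aqp4 at 0. Slc1a3 alone went from a mean of 14.5 to 134.7 CPM, while Rlbp1 (-0.75, adjusted p = 0.292) and Glul (-0.07, adjusted p = 0.830) had negative log2 fold changes that did not pass, and Rlbp1 was lower in each passage. Of 8 proliferation markers none was called, also at an unadjusted p under 0.05, and the sums were 1800 to 2000 and 1737 to 1878 CPM. Over all 16168 genes tested, 3922 reached that unadjusted level, in either direction. The part of these markers in the IGF results was not tested, and in bulk RNA more cells of a type and more RNA per cell cannot be told apart.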

How the data were processed

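PolyA-selected, strand-specific RNA of 6 cultures of 661W cells was sequenced as single-end reads. The authors aligned reads to the mouse genome (GRCm38, mm10) with STAR and obtained gene counts with HTSeq (union method, reverse-stranded). The deposited values used here are these raw counts. A second deposited table, the authors' DESeq2 comparison with fold changes and p-values, was not used. Of 38803 rows, 27 whose gene names had been turned into dates were dropped, which removed 0.223% to 0.301% of each library.

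Counts were fitted with edgeR 4.0.16 (R 4.3.3): filterByExpr, TMM factors (0.941 to 1.04) and the quasi-likelihood test with condition and passage, over 16168 genes (biological coefficient of variation 0.20), with Benjamini-Hochberg adjustment. CPM are counts scaled to a library total of 1000000, and RPKM are CPM per kilobase of all exon bases in GENCODE M21, matched by gene name for 35629 genes. RefSeq promoter windows were searched for motif letters. In simulated libraries of this design over 15939 genes, 2, 35, 50 and 50 of 50 genes changed by 0.5, 1, 2 and 3 on the log2 scale were recovered, with 7 false calls.

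Passages pair the cultures: deviations from the group means correlated by 0.67, 0.26 and 0.59 between cultures of the same passage, and by -0.58 to 0.25 otherwise. The labels give passages but not whether cultures were grown separately beyond that. With the passage as a block, p-values measure how the difference between starved and fed cultures varied over these passages, and not the spread between passages. Alternatives were other scalings, other filters, no replicate block, DESeq2 1.42.0, limma-voom (limma 3.58.1), leaving out each passage or library, and the longest transcript as length. Leaving out a library leaves its partner alone in the passage, where it tells nothing about condition, so such a fit nearly repeats the one without that passage. Named are all members, and of each pathway list the called genes and up to 4 others of smallest p, overlapping transcripts, and for each called member the 3 genes of most similar profile. The members and lists were chosen with earlier results of these data known. Mymk was found under its older name, Tmem8c.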

Additional observations from a re-analysis of the deposited data

How the results depend on the processing

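Over 16 other ways of fitting the counts, Igf1, Igf2 and Igfbp2 stayed higher in starved cells, with log2 fold changes of 1.76 to 2.12, 0.98 to 1.42 and 1.26 to 1.87, and were called in all but 1. That one was the fit with no replicate block, which gave 1.96, 1.25 and 1.26 (adjusted p = 0.169, 0.628 and 0.653) and called 0 members and 0 pathway genes, while edgeR called 4 genes in all and 1417 passed an unadjusted p under 0.05. The number of members called was 5 with no filter on low counts (Igfbp4 and Igfbp5 added), 5 with DESeq2 (Igfbp4 and Igfbp6 added) and 3 to 4 when a passage or a library was left out. The number of pathway genes called, 4 in the report, was 7 with DESeq2 and 2 to 5 when a passage or a library was left out, and Htra1, Socs2, Stc2 and Pik3r3 were called in 14, 15, 6 and 9 of the 16 alternatives. These 16 are not separate checks, since a fit without 1 library nearly repeats the fit without its passage. For Igf1 the log2 fold change was 2.121 without passage 24, and 2.123 and 2.124 without its fed or its starved library. Over all genes 820 were called, 334 without passage 27, 432 without passage 26, 1356 without passage 24, 1811 with no filter on low counts and 2028 with DESeq2. Scaling to library totals alone moved the median of all genes by 0.06 on the log2 scale. Why the counts differ between methods was not tested. With 3 pairs, changes near 0.5 on the log2 scale were rarely recovered in simulated libraries, so a member that was not called is not shown to be unchanged. How far each may have changed is read from its own estimate and SE, which for Igf1r were -0.01 and 0.14.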
